A study of Mus musculus with 12 samples.

Results

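Heat shock proteins and chaperones were followed through 3 days of retinoic acid in mouse embryonic stem (ES) cells. The genes were chosen by name: those whose symbol on the array begins with Hspa, Hspb, Hsp90, Hsph or Dnaj, or with Cct and a number, together with Hspd1, Hspe1, Hsf1, Hsf2, Bag1, Bag3, Stip1, Tcp1, Calr, Canx, Pdia3, Pdia4, Pdia6 and P4hb, leaving out Hspbap1. The rule found 176 of the 41174 probes, which stand for 94 of the 21096 named genes. No measured value enters this rule. Read as worded, it also takes in Hspbp1, a nucleotide exchange factor of Hsp70, which is described with the co-chaperones.

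The study compared undifferentiated ES cells with ES cells exposed to retinoic acid for 3 days, with 3 biological samples in each group and 2 technical arrays per sample. Total RNA was amplified once, labelled with Cy3 and hybridised to 12 one-colour arrays. The labels give no strain, genotype, cell line, culture medium, feeder layer or retinoic acid dose, and are silent on whether replicates were separate cultures. The p-values therefore measure the spread between these samples, which may be technical.

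Chaperones bind proteins that are not yet folded, or that have come unfolded, and keep them from aggregating. Hsp70 proteins do so in cycles of ATP binding and hydrolysis that J-domain proteins (Dnaja, Dnajb and Dnajc) start and nucleotide exchange factors reset, Hsp90 acts later on kinases, receptors and other clients, and the chaperonins enclose a substrate in a barrel. Heat shock factors switch on the cytosolic set under stress, the unfolded protein response switches on the set of the endoplasmic reticulum (ER), and pluripotent cells are known for high levels of several of these proteins.

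Values are log2 of the quantile-normalized intensity plus 50, differences are retinoic acid minus undifferentiated with their SE (n = 3 per group), and folds are on that same scale, which understates changes of dim genes. Calls, higher or lower, needed an adjusted p below 0.05 from limma over the 15289 genes above background. The level of one gene's probe cannot be set against that of another.

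Of the 94 genes, 91 were above background and tested, and Cct8l1, Dnajb7 and Hspb3 were not. After retinoic acid 18 of the 91 rose and 8 fell, and 37 had an unadjusted p under 0.05. Among all genes tested, 18.8% were called higher and 13.6% lower, against 19.8% and 8.79% of the chaperone genes. For 44 of the 91 the values of the groups did not overlap, which held for 46.6% of all genes tested. The median difference was 0.07 for the chaperone genes and 0.0042 for all genes. The share called higher lay near that of all genes and the share called lower below it, and neither was tested, so the account rests on single genes.

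Scaling mattered for the balance. With each array scaled to its 75th percentile, 15 chaperone genes were called higher and 24 lower, and with the median 13 and 18. That made 26.4% and 19.8% of the chaperone genes lower, against 17.2% and 14.6% of all genes, so under these scalings the share called lower lay above that of all genes, and not below it. Of all calls, 58.0% were higher with quantile normalization, 48.1% with the 75th percentile and 51.4% with the median. The median of all genes then stood at -0.09 and -0.06, and that of the chaperone genes at -0.09 and -0.06. The 1587 genes with a mean of 12 or more moved further, with a median of 0.01 under quantile normalization, -0.37 under the 75th percentile and -0.34 under the median.

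**Figure D1:**
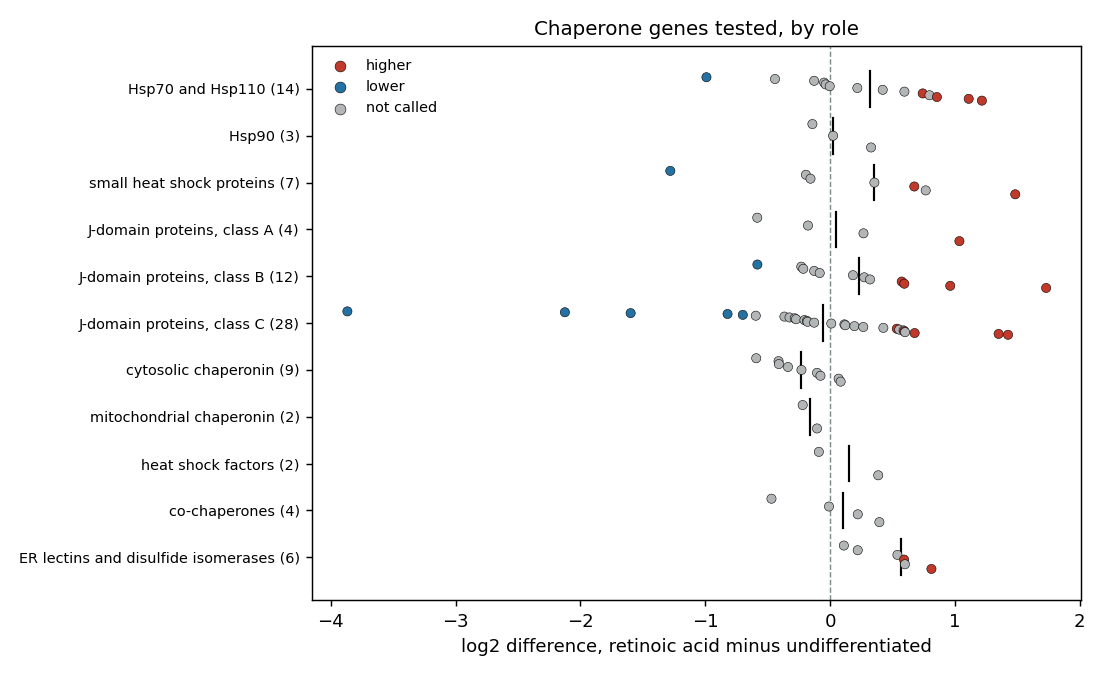
The 91 chaperone genes tested, by role, with the number tested in parentheses. The x axis is the log2 difference, each point is a gene, coloured by its call, and black lines are medians of the role. Calls lie on both sides of 0 in the Hsp70, small heat shock, class B and class C groups, and the Hsp90 and chaperonin genes stay between -0.59 and 0.33 with no call by the brightest probe under quantile normalization; under other scalings, and some other settings, chaperonin genes were called lower.

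The labelled states were visible in their markers. Of 10 pluripotency markers 9 fell, and of 10 retinoic acid response markers 8 rose. The exceptions, none of them called, were Dppa5a (-0.32) in the first list and Rarb (-0.27) and Stra6 (-0.27) in the second. Rarb and Stra6 were already bright in the undifferentiated samples, with means of 12.40 and 11.95. Markers of other cell types moved as well: 5 of 9 fibroblast markers rose and 1 (Thy1) fell, 6 of 9 endoderm and 5 of 8 trophoblast markers rose, and 2 of 9 neural markers rose and 1 (Elavl3) fell. The summed normalized intensity of the fibroblast list ran from 6732 to 15628 in the undifferentiated samples and from 26538 to 33536 after retinoic acid, that of the endoderm list from 1653 to 2870 and from 11621 to 15619, that of the trophoblast list from 1391 to 3537 and from 54036 to 60861, and that of the neural list from 2882 to 3950 and from 3904 to 4280. Such a sum mostly follows its brightest probes. After retinoic acid these were Krt18, Krt8 and Krt19 in the trophoblast list, with means of 15.03, 14.05 and 12.62. In the fibroblast list they were Tagln and Acta2, with means of 13.70 and 13.69, and Acta2 was not called. Eomes, Hand1 and Tfap2a of the trophoblast list were not called either, nor were Foxa2, Gata4 and Afp of the endoderm list (-0.17, -0.35 and -0.41). Postn, Lum, Ttr, Elf5 and Neurog2 were not above background. The part of such cells in the chaperone changes was not tested, and in bulk RNA fewer cells of a type and less RNA per cell cannot be told apart. The header of one array, the second technical array of undifferentiated replicate 2, names the other array of that sample; without it the counts were again 18 and 8.

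The genes counted here as chaperones of the ER accounted for 5 of the 18 genes called higher and for 15 of the 48 positive differences. The 5 were P4hb, Pdia6, Dnajc3, Hspa13 and Dnajb14, and Dnajc14, which also rose, was not counted among them. Taken by compartment, a grouping made after the values were seen and so given without a test, 15 of 17 ER genes had a positive difference, 5 of them rose and none fell, with a median of 0.55. With the 75th percentile 13 were positive and 3 called, with a median of 0.32, and with the median scaling 13 and 2, with 0.35. Of all genes tested, 18.8% were called higher with quantile normalization, 15.95% with the 75th percentile and 15.49% with the median. Of the 1587 genes with a mean of 12 or more, 812, 340 and 366 were positive under the same scalings, though some ER genes, such as Hspa13, are dimmer.

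Hspa5 (BiP), the Hsp70 of the ER lumen that holds the unfolded protein response in check, read 12.71, 12.13 and 13.37 in undifferentiated replicates 1 to 3 and 13.53, 13.43 and 13.64 after retinoic acid. All 3 treated samples lay above all 3 controls, but the controls spanned more than a log2 unit, and the difference of 0.80 ± 0.29 was not called (adjusted p = 0.0746). It was called without undifferentiated replicate 3 (1.11, adjusted p = 0.00856), with the replicate number as a block (adjusted p = 0.0476) and with all 12 arrays and the sample as a random block (adjusted p = 0.019).

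P4hb, the classical protein disulfide isomerase, rose from 13.16, 12.67 and 12.48 to 13.54, 13.67 and 13.55, a difference of 0.81 ± 0.20 (1.75-fold, adjusted p = 0.0169). Pdia6, a further disulfide isomerase, rose from 13.12, 13.05 and 13.01 to 13.56, 13.85 and 13.54, by 0.59 ± 0.15 (adjusted p = 0.0214). The groups overlapped in neither gene. Both calls were lost with the 75th percentile or the median as the scaling, and the other 3 probes of Pdia6 gave 0.34, -0.18 and -0.28, none with an adjusted p under 0.05.

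Dnajc3 (P58IPK), a luminal J-domain protein that works with BiP, rose from 10.27, 10.0004 and 10.41 to 10.88, 10.91 and 10.92 (0.68 ± 0.16, adjusted p = 0.0142), and its second probe gave 0.61 (adjusted p over all probes 0.0319). The treated samples were nearly level and all above the controls. The call was lost with the median scaling. Its remaining probes gave 0.08 and 0.46, neither with an adjusted p under 0.05. Hspa13, a microsomal Hsp70 relative, rose from 8.43, 8.55 and 8.63 to 9.20, 9.72 and 9.25 (0.86 ± 0.18, adjusted p = 0.00971), against 0.43 by its second probe, and the groups did not overlap.

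Dnajb14, the remaining gene of this ER grouping that rose, is described with the class B genes. The other 12 ER genes were not called. Calr (calreticulin), a lectin chaperone of the lumen, read 13.27, 12.93 and 13.18 against 13.82, 13.35 and 13.83, with no overlap and a difference of 0.54 ± 0.19 (adjusted p = 0.0655), while its second probe gave -0.04. Canx (calnexin), its membrane-bound relative, differed by 0.11 ± 0.15. Hsp90b1 (GRP94), the Hsp90 of the ER, differed by 0.33 ± 0.19.

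Pdia3, the disulfide isomerase that works with those lectins, had widely spread values of 10.44, 10.11 and 12.25 against 12.11, 10.29 and 11.07. The highest values were those of undifferentiated replicate 3 and retinoic acid replicate 1, the groups overlapped, and the difference was 0.22 ± 0.62. Pdia4 read 10.73, 9.62 and 9.29 against 10.52, 10.19 and 10.73 (0.60 ± 0.36), and Dnajb9 (ERdj4), a BiP co-chaperone, gave -0.23 ± 0.20.

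Among genes of the unfolded protein response and other ER folding that are not in the list, 6 of 27 tested rose and 1 fell, with a median of -0.0015. That is 22.2% and 3.7%, against 18.8% and 13.6% of all genes tested. Edem3, which trims the glycans of misfolded proteins, rose by 1.69 ± 0.17, Txndc5, a disulfide isomerase, by 1.33 ± 0.20, and Clgn, a calnexin relative, by 1.05 ± 0.28. Atf4, the transcription factor of the PERK branch, fell by 1.09. Xbp1 and Ddit3, which encode factors of the same response, gave -0.31 and -0.51 and were not called, and Hyou1, an ER Hsp70 relative, gave -0.06.

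The promoters of the members were then searched for sequence elements, which entered neither the choice of genes nor their values. The ER stress response element, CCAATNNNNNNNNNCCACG, was searched on both strands in the RefSeq promoter windows (GRCm38.p6, 250 bases before to 50 after each start). It was found in 39 of 32851 windows (0.119%) and in those of 6 of the 78 chaperone genes with a window, and 16 chaperone genes had none in the table. The following sequences are printed to show the element, in capitals, in each of these promoters, 5′ to 3′ on the gene's strand; where it lies in the opposite orientation the capitals show its complement. The Canx window, which lies in the span of the predicted gene Gm46280, is shown with 5 bases on either side, and the others, which lie in no gene of the RefSeq table, with 20.

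Hspa5, chr2:34772005-34772063, plus strand: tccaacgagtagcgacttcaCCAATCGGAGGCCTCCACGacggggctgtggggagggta
Hsp90b1, chr10:86705513-86705571, minus strand: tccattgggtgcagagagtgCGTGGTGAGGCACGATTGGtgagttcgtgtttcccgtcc
Hsp90b1, chr10:86705618-86705676, minus strand: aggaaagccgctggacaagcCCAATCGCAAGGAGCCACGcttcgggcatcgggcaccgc
Dnajc3, chr14:118937807-118937865, plus strand: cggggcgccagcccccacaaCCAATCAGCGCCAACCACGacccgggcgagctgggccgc
Pdia6, chr12:17266471-17266529, plus strand: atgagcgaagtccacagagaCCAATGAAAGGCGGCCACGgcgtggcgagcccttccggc
Calr, chr8:84847055-84847113, minus strand: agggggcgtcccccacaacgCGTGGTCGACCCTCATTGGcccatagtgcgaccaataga
Canx, chr11:50325795-50325823, minus strand: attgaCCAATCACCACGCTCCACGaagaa

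The element ended between 47 and 194 bases before the start. By the brightest probe under quantile normalization all 6 genes had a positive difference, 2 of them called, namely Dnajc3 and Pdia6. Over the alternatives tried the lowest difference was -0.29 for Canx, -0.09 for Hsp90b1 and -0.04 for Calr. Pdia6 lost its call with the 75th percentile or the median scaling, and Dnajc3 with the median. The whole array held 22 tested genes with the element in a window, the 6 chaperone genes included. Of these 22, 4 were higher and 2 lower, with a median of 0.09, against 18.8% higher and 13.6% lower among all genes tested. A match is a description of these letters and not a measured binding site.

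The heat shock element of 3 units, GAANNTTCNNGAA, was found in 198 windows (0.603%) and in those of Dnajb6, Hspd1, Hspe1 and Hsph1; in Hsph1 it lay after the start and is not printed. Hspd1 and Hspe1, the neighbouring genes of the mitochondrial chaperonin, share 1 divergent stretch with overlapping matches, read here from either strand. It lies within the RefSeq span of Hspd1, and the Dnajb6 match within that of the predicted gene Gm5129. They are printed to show that stretch, with the element in capitals.

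Hspe1, chr1:55088056-55088084, plus strand: ccgttctaGAACCTTCCGGAAggccccgc
Hspd1, chr1:55088051-55088079, minus strand: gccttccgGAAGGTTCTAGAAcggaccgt
Dnajb6, chr5:29735844-29735872, plus strand: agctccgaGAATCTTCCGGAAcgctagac

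Of these 4 genes only Dnajb6 was called, and it fell. Only exact matches within a window were counted, and 16 chaperone genes had no window. The other chaperone genes, Hspa1a and Dnajb1 among them, were therefore not shown to lack a heat shock element. The array held 66 tested genes with the element, the 4 chaperone genes included. Of these 66, 11 were higher and 7 lower, with a median of 0.02, against 18.8% higher and 13.6% lower among all genes tested.

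**Figure D2:**
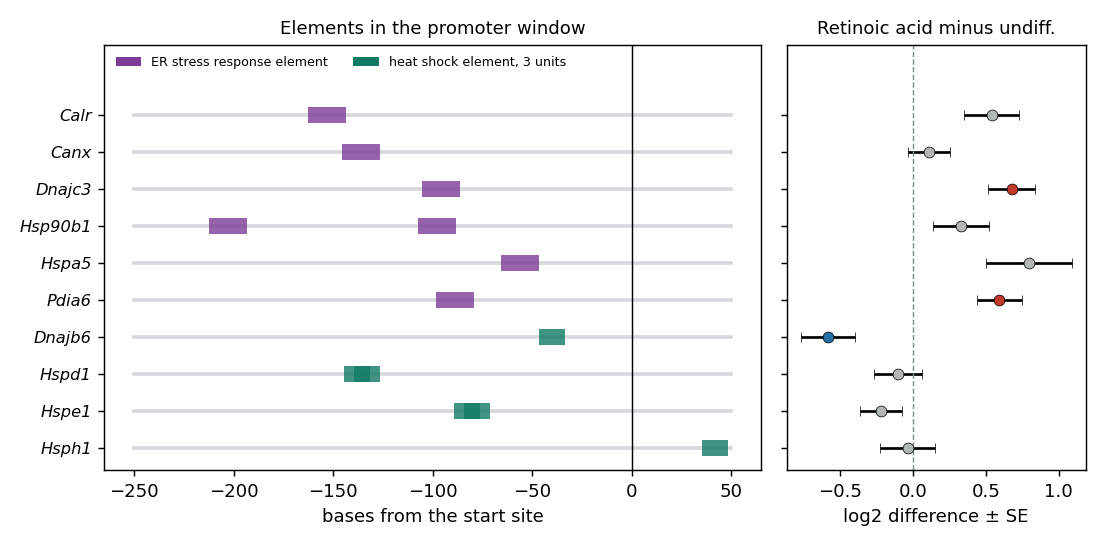
Left, position of each element in the promoter window, in bases from the start site (grey bars run from 250 before to 50 after). Right, the log2 difference of the same gene with its SE (n = 3 per group), red for called higher, blue for lower, grey for not called. Differences are those of the brightest probe under quantile normalization. The 6 genes with the ER stress element lie between 0.11 and 0.80. The 4 with an exact match to the heat shock element lie between -0.58 and -0.04.

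Of the 14 Hsp70 and Hsp110 genes, 4 rose and 1 fell, with a median of 0.32. That is 28.6% and 7.1%, against 18.8% and 13.6% of all genes tested. Hspa1a, the stress-inducible Hsp70, rose from 7.60, 7.54 and 7.47 to 8.81, 8.74 and 8.70. The replicates of each group lay within 0.13 of each other and the difference was 1.22 ± 0.14 (2.32-fold, adjusted p = 0.00049); its second probe gave 1.16 (adjusted p over all probes 0.000794). Hspa1b, its near-identical neighbour, read 7.08, 6.85 and 6.91 against 7.53, 7.01 and 7.56, with overlap, and was not called (0.42 ± 0.19). Probes for the pair may cross-hybridise, so the split between them is uncertain.

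Hspa4l, an Hsp110 relative that acts as exchange factor for Hsp70, rose from 7.01, 7.73 and 7.53 to 8.42, 8.76 and 8.41 (1.11 ± 0.22, adjusted p = 0.00664). The groups did not overlap, and its other 3 probes gave 1.02, 0.84 and 0.17. Hspa12b, a distant Hsp70 relative, rose from 7.13, 6.51 and 6.52 to 7.57, 7.27 and 7.55 (0.74 ± 0.21, adjusted p = 0.0302), with its probe above background on 5 of the 6 undifferentiated arrays.

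Hspa9 (mortalin), the Hsp70 of the mitochondrial matrix that drives protein import, fell from 12.98, 13.25 and 13.63 to 12.30, 12.20 and 12.38. No value overlapped, and the difference was -0.99 ± 0.19 (adjusted p = 0.00633), with -1.03 by the second probe. It was called under every alternative tried. Hspa4 (Apg-2), a cytosolic exchange factor, read 13.43, 13.14 and 13.31 against 12.95, 12.92 and 12.69, without overlap; its difference of -0.44 ± 0.16 was not called (adjusted p = 0.0674). It was called lower with the 75th percentile or the median scaling, with the sample as a random block, with robust estimation, and without undifferentiated replicate 2 (-0.52, adjusted p = 0.0458). Its other 3 probes gave -0.07, -1.05 and -0.25, none with an adjusted p under 0.05.

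Hspa8 (Hsc70), the constitutive cytosolic Hsp70, read 15.41, 15.23 and 15.40 against 15.27, 15.24 and 15.39. Its probe exceeded an intensity of 40000 on 6 of 12 arrays, close to the top of the scale, where a change could be compressed; the dimmer second probe gave -0.19, and neither was called. Hsph1 (Hsp105), the main cytosolic Hsp110, gave -0.04 ± 0.19.

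None of the 3 Hsp90 genes was called by limma, and none had an unadjusted p under 0.05. Hsp90aa1, the inducible cytosolic form, read 15.35, 15.16 and 15.40 against 15.16, 15.20 and 15.13 (-0.14 ± 0.15). Hsp90ab1, the constitutive form, gave 0.02 ± 0.14 with its brightest probe and -0.03 with its second. Both bright probes exceeded 40000 on some arrays, 6 and 7 of 12, and the groups overlapped in each.

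Small heat shock proteins hold unfolding proteins without using ATP. Of the 7 genes tested that were grouped here by name, 2 rose (Hspb11 and Hspb2) and 1 fell (Hspb1). Those are 28.6% and 14.3%, against 18.8% higher and 13.6% lower among all genes tested. Hspb1 (Hsp25 in mouse, Hsp27 in human) fell from 14.97, 14.97 and 14.88 to 13.40, 14.01 and 13.58, by 1.28 on the log2 scale (SE 0.19, adjusted p = 0.00167). The lowest undifferentiated sample lay well above the highest treated one, and 2 arrays exceeded 40000. It was called under every alternative tried. Hspb11 (IFT25), a member by name that works in intraflagellar transport, rose from 9.54, 9.94 and 9.40 to 11.09, 11.20 and 11.03 (1.48 ± 0.18, adjusted p = 0.000683), and its second probe was below background. Hspb2, which is best known from muscle, rose from 7.07, 7.73 and 7.38 to 8.20, 8.17 and 7.83 (0.67 ± 0.21, adjusted p = 0.0426), against 0.36 by its second probe. The call of Hspb2 was lost in 10 of the 23 alternatives tried. Hspb8, the partner of Bag3, read 8.70, 8.84 and 9.89 against 9.98, 9.68 and 10.06, with undifferentiated replicate 3 inside the treated range; its 0.77 ± 0.31 was not called (adjusted p = 0.0996), and was called without that replicate (1.14, adjusted p = 0.00421).

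J-domain proteins choose which substrates Hsp70 meets. Of the class A and B genes, 5 of 16 tested rose and 1 fell, against 18.8% higher and 13.6% lower among all genes tested. Dnaja4 rose from 6.65, 6.95 and 6.80 to 7.73, 7.94 and 7.83 (1.04 ± 0.15, adjusted p = 0.00179), with a second probe below background. Dnajb3 rose from 6.50, 6.99 and 6.58 to 8.43, 8.45 and 8.38 (1.73 ± 0.17, 3.32-fold, adjusted p = 0.00028), and the treated samples were nearly identical. This was the largest rise among the 91 genes.

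Dnajb4 (Hlj1) rose from 7.51, 8.11 and 7.96 to 8.62, 9.22 and 8.62 (0.96 ± 0.24, adjusted p = 0.0165); its second probe gave 0.10 and the next 0.59. Dnajb1 (Hsp40), the main stress-inducible partner of cytosolic Hsp70, rose from 11.77, 11.92 and 11.52 to 12.42, 12.40 and 12.17 (0.59 ± 0.17, adjusted p = 0.0298), but its second probe gave 0.13 and the call was lost with the 75th percentile or the median scaling. Dnajb14, a J-domain protein of the ER membrane, rose from 6.77, 6.94 and 7.10 to 7.43, 7.67 and 7.44 (0.57 ± 0.16, adjusted p = 0.0285), with 0.16 by both its dimmer probes. The groups overlapped in none of these.

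Dnajb6, which suppresses the aggregation of polyglutamine proteins, fell from 11.90, 11.50 and 12.06 to 11.15, 11.17 and 11.39 (-0.58 ± 0.19, adjusted p = 0.0477), just inside the threshold; its second probe fell by 0.97 (adjusted p over all probes 0.00687) and the remaining probe gave -0.69. Dnaja1, a cytosolic class A protein, was not called, with -0.18 ± 0.19 by its brightest probe and 0.12 by its second.

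Class C, whose members share only the J domain and have diverse roles, held the widest changes: 5 of 28 rose and 5 fell. That is 17.9% in each direction, against 18.8% higher and 13.6% lower among all genes tested. Dnajc6 (auxilin), which recruits Hsc70 to strip clathrin from vesicles, fell from 10.13, 10.33 and 10.76 to 6.45, 6.63 and 6.54. The treated samples were close to background though above it on all 6 arrays, and the difference of -3.87 ± 0.19 (14.6-fold lower, adjusted p = 1.5e-05) was the largest of all 91 in either direction. It ranged from -4.895 to -3.69 over the alternatives and was called in each.

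Dnajc21, a factor of ribosome biogenesis, fell from 11.86, 11.17 and 12.0033 to 9.71, 9.63 and 9.32 (-2.12 ± 0.24, 4.36-fold lower, adjusted p = 0.000506), with a wide gap between the groups. Dnajc7 (Tpr2), which hands clients between Hsp70 and Hsp90, fell from 10.15, 10.16 and 11.52 to 9.62, 8.34 and 9.06 (-1.60 ± 0.44, adjusted p = 0.027); both groups were spread, and the call was lost without retinoic acid replicate 2 (-1.26, adjusted p = 0.079) or 3 (-1.62, adjusted p = 0.0741) and with no filter on dim probes. Each of these genes has 1 probe.

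Dnajc17, a nuclear J-domain protein with an RNA recognition motif, fell from 10.38, 10.50 and 10.40 to 9.50, 9.74 and 9.58 (-0.82 ± 0.15, adjusted p = 0.00402), with -0.71 by its second probe. Dnajc5b, a relative of the cysteine string protein, fell from 6.79, 7.08 and 6.98 to 6.11, 6.45 and 6.21 (-0.70 ± 0.16, adjusted p = 0.014), with its probe above background on only 3 of the 6 treated arrays.

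On the other side, Dnajc9, a histone chaperone that brings Hsp70 to histones H3 and H4, rose from 11.68, 11.99 and 11.47 to 13.12, 13.13 and 12.95 (1.35 ± 0.18, 2.55-fold, adjusted p = 0.000992), and its second probe gave 0.86 (adjusted p over all probes 0.0737). The treated values were tight and more than 0.9 above any control. Dnajc28 rose from 6.91, 7.52 and 6.91 to 7.77, 9.34 and 8.51 (1.42 ± 0.38, adjusted p = 0.0231), with treated samples that differed widely; its second probe gave 0.11. Dnajc14 rose from 8.96, 8.96 and 9.10 to 9.69, 9.45 and 9.68 (0.59 ± 0.15, adjusted p = 0.0186), with 0.14 by its second probe. Dnajc12, a co-chaperone of the aromatic amino acid hydroxylases, rose from 9.35, 9.43 and 9.28 to 9.91, 9.91 and 9.84 (0.53 ± 0.14, adjusted p = 0.0212).

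**Figure D3:**
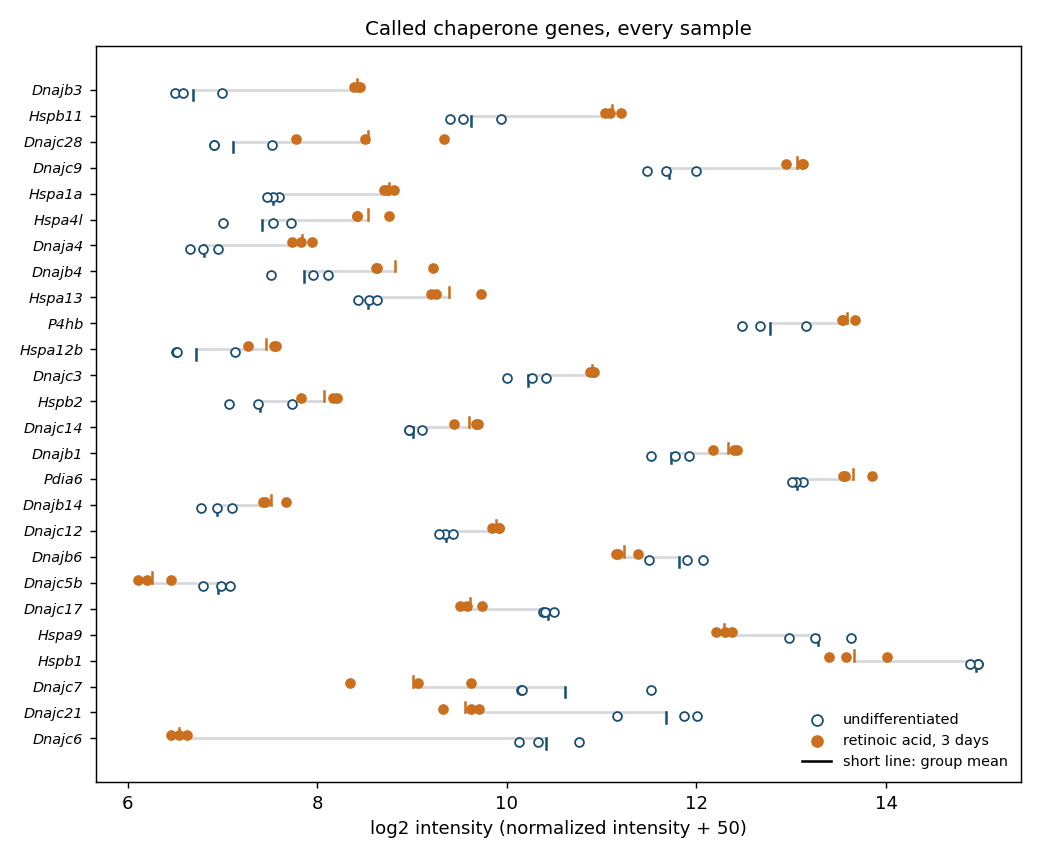
Log2 intensity of the 26 called genes in every sample, sorted by difference. Open circles are the 3 undifferentiated and filled circles the 3 retinoic acid samples, each the mean of 2 technical arrays, and short vertical lines are group means. The groups do not overlap in any of these genes, and the widest gap is that of Dnajc6.

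The cytosolic chaperonin, whose subunits form the double ring that folds actin and tubulin, showed no limma call in 9 genes tested (2 had an unadjusted p under 0.05), with 7 negative differences and a median of -0.23. Tcp1, the alpha subunit, read 13.85, 13.87 and 13.86 against 13.79, 13.98 and 14.00 (0.07 ± 0.14), and its second probe gave -0.32. Cct7 and Cct8, the eta and theta subunits, gave -0.41 ± 0.16 and -0.41 ± 0.17 with no overlap between groups and adjusted p of 0.0832 and 0.0974. Cct6a, the zeta subunit, gave -0.59 ± 0.31. Cct2 gave 0.08 by its brightest probe, over 40000 on 3 arrays, and -0.36 by its second.

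The calls of this family depended on the scaling and on other settings. With the 75th percentile all 9 differences were negative, 7 were called lower (Cct2, Cct3, Cct5, Cct6a, Cct6b, Cct7 and Cct8) and the median was -0.62, and with the median scaling 6 were called with a median of -0.58. Genes of a mean of 12 or more as a whole moved by a median of -0.37 and -0.34 under the same scalings. Of these 1587 genes, 474 and 373 were called lower, against 17.2% and 14.6% of all genes tested. With quantile normalization kept, Cct3 was called lower by its second probe (-0.58, adjusted p over all probes 0.0288) and by the mean of its probes, Cct6a with the replicate block and without undifferentiated replicate 2, Cct7 with the sample as a random block and with robust estimation, and Cct8 with robust estimation. A direction for the chaperonin is therefore given here only together with its scaling. Of 9 prefoldins and other chaperonin partners, Pdcl3 rose by 0.56 ± 0.15 and Pfdn6 fell by 0.84, which is 11.1% in each direction against 18.8% and 13.6% of all genes tested.

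In the mitochondria, 7 of 9 chaperone genes had a negative difference, a grouping again made after the values were seen, and Hspa9 was the 1 that fell. Hspd1 (Hsp60) read 14.86, 14.89 and 15.19 against 14.90, 14.73 and 14.99 (-0.11 ± 0.16), with 4 arrays over 40000 and -0.49 by its dimmer probe. Hspe1 (Hsp10), its lid, read 14.41, 14.53 and 14.36 against 14.19, 14.29 and 14.16, with no overlap, but at -0.22 ± 0.14 was not called. Dnaja3 (Tid1), a J-domain partner of Hspa9, gave -0.58 ± 0.20 without overlap and was not called (adjusted p = 0.0601). Its second probe gave -0.70, also without overlap (adjusted p over all probes 0.0209), and the gene was called lower under both other scalings, by the mean of its probes, with the replicate or the sample as a block, with robust estimation and without undifferentiated replicate 3. With the 75th percentile 5 of the 9 were called lower and with the median 3, against 17.2% and 14.6% of all genes tested. Of the 1587 genes with a mean of 12 or more, 474 and 373 were called lower under the same scalings. Several of the mitochondrial genes are that bright, though Dnajc28 is dimmer. The 1 gene that rose was Dnajc28, described above with its discordant probe.

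Of 12 other mitochondrial chaperones and proteases, 1 rose and 2 fell (8.3% and 16.7%, against 18.8% and 13.6% of all genes tested). Htra2, a protease of the space between the membranes, rose by 0.68 ± 0.17. Clpp and Afg3l2, which degrade proteins of the matrix and the inner membrane, fell by 0.89 and 0.74.

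The 2 heat shock factors were not called, and neither had an unadjusted p under 0.05. Hsf1, the master factor of the heat shock response, read 14.12, 14.37 and 13.78 against 14.33, 14.42 and 14.67 (0.38 ± 0.20), and Hsf2 gave -0.09 ± 0.26. By these brightest probes the groups overlapped in both. The dimmer probes of Hsf1 gave 0.42, without overlap, and 0.11, with overlap. Neither had an adjusted p under 0.05 over all probes. These are mRNA levels, and Hsf1 is known to be controlled mainly at the protein level.

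Nor was any of the 4 co-chaperones of the list called, or below 0.05 before adjustment. Bag1 and Bag3, exchange factors that tie Hsp70 to the proteasome and to autophagy, gave 0.22 ± 0.19 and -0.01 ± 0.40. Bag3 read 8.17, 8.65 and 9.66 against 9.29, 8.26 and 8.90, highest in undifferentiated replicate 3 and retinoic acid replicate 1, the same samples as for Pdia3. Stip1 (Hop), the bridge between Hsp70 and Hsp90, read 12.91, 12.05 and 12.70 against 12.55, 11.40 and 12.30 (-0.47 ± 0.34), and Hspbp1 gave 0.39 ± 0.27.

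Among 29 co-chaperones of Hsp70 and Hsp90 listed beside these, a list that also counts Hspbp1, 3 rose and 5 fell. That is 10.3% and 17.2%, against 18.8% and 13.6% of all genes tested. Bag2, an exchange factor that restrains the ligase Stub1 (CHIP), rose from 7.63, 8.33 and 7.47 to 9.95, 9.9985 and 10.05 (2.19 ± 0.23, adjusted p = 0.000349), more than any chaperone gene. Stub1 itself rose by 0.78 ± 0.15 and Unc45a, a myosin chaperone, by 0.52 ± 0.16. Fkbp5, an immunophilin of the steroid receptor complex, fell by 1.33, Sugt1 by 1.03 and the phosphatase Ppp5c by 0.77.

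Probes of a gene can be compared for their differences. Of the 54 chaperone genes with 2 or more probes, 46 had a second probe above background, and in 37 of them both probes had the same sign. The sign differed in Cct2, Cct4, Tcp1, Calr, Hsp90ab1, Dnaja1, Dnajb12, Dnajc11 and Dnajc16, none of them called: Cct4 gave -0.08 and 0.0048, Dnajb12 0.27 and -0.19, Dnajc11 -0.21 and 0.12, and Dnajc16 0.19 and -0.0038. The other 5 are given above. Of the 15 called genes with such a second probe, all had the same sign by both, 9 changed by at least 0.5 times as much, and 6 had an adjusted p under 0.05 over all probes: Hspa1a, Hspa4l, Hspa9, Dnajb6, Dnajc3 and Dnajc17. Only Dnajc28 differed by more than 2-fold, and 8 called genes had 1 probe.

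Of the 26 calls, 12 were kept when any 1 sample was left out: those of Hspa1a, Hspa4l, Hspa13, Hspb11, Dnaja4, Dnajb3 and Dnajc9 among the rises, and of Dnajc6, Dnajc21, Hspb1, Hspa9 and Dnajc17 among the falls. The other 14 were lost without at least 1 sample, at adjusted p between 0.0511 and 0.147, and each kept its direction. Leaving out retinoic acid replicate 3 ended 13 of them, all of the 14 other than Dnajb4, and leaving out retinoic acid replicate 1 ended 11, all other than Dnajb4, Dnajc7 and Dnajc28. Calls also became fewer among all genes, with 13.1% higher and 8.0% lower without retinoic acid replicate 3, and 13.7% and 8.7% without retinoic acid replicate 1. Dnajb4 was lost only without undifferentiated replicate 1 (0.79, adjusted p = 0.0577), and Dnajc28 without undifferentiated replicate 1 (1.32, adjusted p = 0.0802), undifferentiated replicate 3 (1.32, adjusted p = 0.0632) or retinoic acid replicate 3 (1.44, adjusted p = 0.068). Dnajb1, Dnajb6 and Hspb2 were kept only when undifferentiated replicate 2 was the sample left out. P4hb was lost without any 1 of the treated samples (0.77 to 0.83, adjusted p of 0.0512 to 0.0581), and Dnajc3 without retinoic acid replicate 1 or 3 (0.69 and 0.67, adjusted p of 0.0514 and 0.0631).

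**Figure D4:**
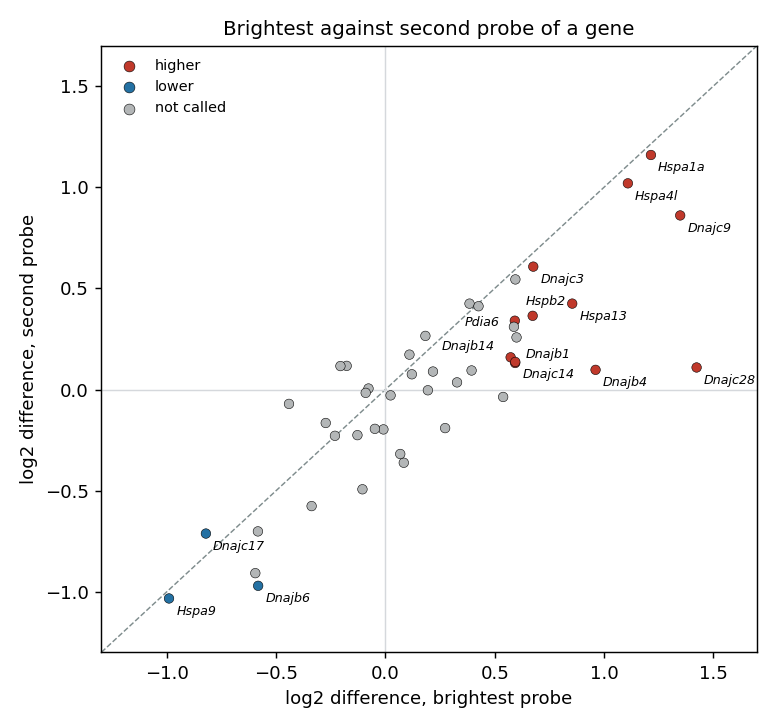
Log2 difference by the second probe (y axis) against that by the brightest probe (x axis) for the 46 genes with both above background. Each point is a gene, coloured by the call of its brightest probe, called genes are named, and the dashed line marks equal differences. Hspa1a, Hspa4l, Hspa9 and Dnajc17 lie near the line, and Dnajc28 and Dnajb4 far below it.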

How the data were processed

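The 12 scanner tables were deposited with net spot intensity on a linear scale, per the file headers, with local background already removed by a method not given in the sources used here. R 2.15.0 and limma appear in the submitters' processing notes. Intensities of 41174 probes were quantile-normalized here, 50 was added and log2 taken. Probes were named through accessions matched to RefSeq (GRCm38.p6), and a gene was represented by its brightest probe. A gene was tested when it exceeded the 95th percentile of 27 negative control spots on at least 4 of 6 arrays of a group. The number of arrays limits the precision. Technical arrays were averaged, with a median gap between them of 0.05 to 0.07 (log2) over the 91 genes. Groups were compared with limma 3.58.1 in R 4.3.3 (lmFit, eBayes, no covariates, two-sided, Benjamini-Hochberg over all 15289 genes). Figures used matplotlib 3.10.9. The fit was tested on simulated data. The authors' deposited intensity table, for 41173 probes, served as an alternative.

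Members and lists were chosen with earlier results of these data known. Named were 28 genes of known role, the called genes of each role (at most 6 in a direction), members whose probes disagree, and up to 3 called genes in a direction of the lists set beside them. Pdia4 and a few others shown for contrast were picked for the text with values in view. The plan's rule for another scanner format did not apply.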

Additional observations from a re-analysis of the deposited data

How the results depend on the processing

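The counts of 18 genes called higher and 8 lower were recomputed under 23 alternatives, and no named gene's call changed sign. With the 75th percentile as the scaling 24 genes were called lower and the median was -0.0942; with the median scaling 18 were lower. By the second brightest probe 8 were higher, each probe by itself gave 13 lower among 159 probes, and an adjusted p under 0.01 left 7 higher and 5 lower. Leaving out 1 sample gave 8 to 17 higher and 5 to 11 lower, with a median of 0.03 to 0.07: 8 and 5 when retinoic acid replicate 3 was left out, 10 and 6 for retinoic acid replicate 1, and 11 and 7 for undifferentiated replicate 1. Without retinoic acid replicate 3 the shares of all genes fell as well, to 13.1% higher and 8.0% lower, against 8.8% and 5.5% of the chaperone genes. With the replicate number as a block 19 were higher and 10 lower, with the median at 0.07; same-numbered samples correlated at -0.06, 0.22 and 0.07 in their deviations and not every sample correlated best with its own number, so the numbers were not taken as pairing. Of the 26 called genes, 11 were called in every alternative other than by second probes, and the authors' values gave 18 and 8. The causes were not tested. Spots near the top of the scale limit Hspa8, Hsp90aa1, Hsp90ab1, Cct2, Cct5, Hspd1 and Hspb1, and spots near background limit Dnajc5b and Hspa12b.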

Other observations

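Some chaperone genes that were not called had 1 sample far from the other 5 or a spread within groups as wide as any difference. Dnajc25, a J-domain protein of the ER membrane, read 9.08, 8.49 and 8.49 in the undifferentiated samples and 8.65, 8.57 and 10.50 after retinoic acid, so that retinoic acid replicate 3 alone was high. Dnajc2, which binds ribosomes, read 11.91, 11.41 and 12.68 against 11.39, 11.47 and 11.35, with undifferentiated replicate 3 the highest. Its second probe, at 11.07, 10.68 and 11.64 against 9.97, 10.53 and 10.16, did not overlap and fell by 0.91 (limma, adjusted p over all probes 0.0400), and the gene was called lower with the 75th percentile or the median scaling and without undifferentiated replicate 2. Dnajb2, a neuronal J-domain protein, read 6.9985, 7.30 and 8.31 against 8.31, 7.21 and 8.05, and was highest in the samples in which Bag3 and Pdia3 were also highest, undifferentiated replicate 3 and retinoic acid replicate 1. These 5 genes were picked after their values were seen.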
